A study of Mus musculus with 2 samples.

Results

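The gene *2410141K09Rik* was named as the nearest gene by 50 of the 2763 *Meg3* ChIRP-seq peaks deposited for mouse embryonic fibroblasts (MEFs), 35 of 1209 in WT and 15 of 1554 in β-actin KO cells. The peaks were chosen by that name, and the gene was picked because no other was named by as many WT peaks, so its counts are given as a description without a test. In ChIRP-seq, chromatin that is crosslinked to an RNA is captured through biotinylated antisense DNA probes, and its DNA is then sequenced. The probes here were 16 oligonucleotides of 20 bases against *Meg3*, a maternally expressed long non-coding RNA, split into an odd and an even pool. The cells were cultured fibroblasts, crosslinked with 1% glutaraldehyde for 10 min. WT cells carry β-actin and KO cells come from embryos that lack it, in which other actins are still made. The labels give no age, sex or strain, and peak lists hold no expression values against which the fibroblast label could be checked. The authors merged 4 libraries per genotype, 2 from each probe pool, before peak calling, so WT and KO are 1 list each, with no replicate list. Every peak has a score of 1 and no read count, so strength and depth are unknown, and the Wilson 95% intervals below cover only the counting of peaks.

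*2410141K09Rik* lies on the minus strand of chromosome 13 at chr13:66418114-66441118 (GRCm38, the build of the lists) and is annotated in RefSeq as protein coding over 23.0 kb. It belongs to a large cluster of zinc-finger genes. Many genes of this kind in the mouse encode KRAB zinc-finger proteins, in which a KRAB domain recruits repressive chromatin factors and a row of C2H2 fingers binds DNA, often within transposable elements. Such genes arise by repeated local duplication, so neighbouring stretches of a cluster can be nearly alike. Of the 3 RefSeq transcripts, the coding sequences of 2 hold 14 C2H2 motifs (C, 2 residues, C, 12 residues, H, 3 to 5 residues, H) in 464 and 461 residues, and that of the shortest, with 95 residues, holds 0. RefSeq lists 217 genes on chromosome 13 from 62 to 69 Mb, of which 30 have symbols beginning with Zfp and 13 are vomeronasal receptor pseudogenes (Vmn2r-ps).

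The sequences under the peaks show such likeness. A 293-base WT peak, printed because a second peak stands at its copy, at chr13:66327473-66327765 recurs without a single difference, on the minus strand, at chr13:66541136-66541428, where it overlaps another WT peak of the same gene by 78 bases. It is shown 5′ to 3′ on the plus strand of the first site, with capitals for the bases that the peak at the copy covers.
WT peak with an identical copy: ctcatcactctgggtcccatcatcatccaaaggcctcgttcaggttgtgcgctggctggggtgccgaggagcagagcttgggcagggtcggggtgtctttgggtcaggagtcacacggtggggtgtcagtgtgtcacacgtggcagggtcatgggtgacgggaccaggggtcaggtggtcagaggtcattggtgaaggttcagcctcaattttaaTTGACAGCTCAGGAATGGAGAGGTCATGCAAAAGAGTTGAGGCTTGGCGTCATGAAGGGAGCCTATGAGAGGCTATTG
The WT peak nearest the transcription start site (TSS), in the first intron, aligned over 145 bases to a WT peak 81189 bp away. The aligned parts are chr13:66439136-66439280 on the plus strand and chr13:66520502-66520646 on the minus strand, with capitals for the 3 bases that differ.
WT peak in the first intron: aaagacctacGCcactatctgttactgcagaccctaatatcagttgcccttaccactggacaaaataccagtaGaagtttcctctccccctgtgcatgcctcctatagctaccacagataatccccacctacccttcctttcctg
WT peak upstream of the gene: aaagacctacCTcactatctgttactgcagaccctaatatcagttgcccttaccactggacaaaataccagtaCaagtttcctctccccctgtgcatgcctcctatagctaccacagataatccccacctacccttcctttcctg
The KO list holds such a pair too, over 162 bases, at chr13:66424349-66424510 on the plus strand within an intron and chr13:66492918-66493079 on the minus strand upstream of the gene. Capitals again mark the 3 bases that differ.
KO peak in an intron: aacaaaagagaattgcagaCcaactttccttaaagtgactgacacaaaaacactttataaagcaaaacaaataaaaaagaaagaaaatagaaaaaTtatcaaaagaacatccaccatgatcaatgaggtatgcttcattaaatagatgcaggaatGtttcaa
KO peak upstream of the gene: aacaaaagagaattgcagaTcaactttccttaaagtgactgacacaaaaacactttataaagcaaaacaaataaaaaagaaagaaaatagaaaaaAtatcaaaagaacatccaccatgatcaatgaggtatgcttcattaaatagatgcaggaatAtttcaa
The KO peak nearest the TSS, chr13:66442734-66442971 on the plus strand, is shown because each of its stretches of 100 bases was present several times.
KO peak nearest the TSS: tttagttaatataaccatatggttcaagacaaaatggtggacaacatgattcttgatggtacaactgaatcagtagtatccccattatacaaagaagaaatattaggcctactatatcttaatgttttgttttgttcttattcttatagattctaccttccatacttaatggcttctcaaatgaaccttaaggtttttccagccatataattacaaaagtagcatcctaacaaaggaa
The WT peak at chr13:66655073-66655285, plus strand, is shown for contrast, since it lies in an L1Md_T element, a young LINE-1 retrotransposon found all over the genome.
WT peak in L1Md_T: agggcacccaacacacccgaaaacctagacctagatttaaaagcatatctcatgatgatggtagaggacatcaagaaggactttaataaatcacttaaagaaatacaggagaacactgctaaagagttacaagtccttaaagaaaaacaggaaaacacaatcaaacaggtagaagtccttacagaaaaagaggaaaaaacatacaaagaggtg

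**Figure D1:**
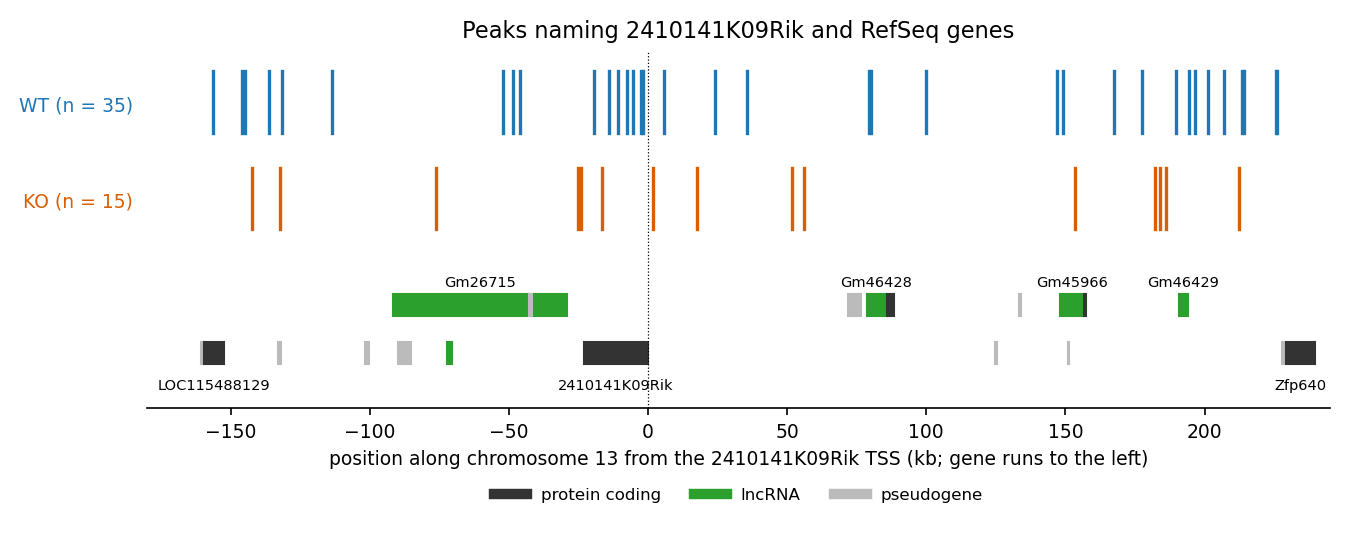
Centres of the 35 WT and 15 KO peaks that name 2410141K09Rik (ticks; widths are not drawn), along chromosome 13 in kb from its TSS, above RefSeq genes on the plus strand (upper row) and minus strand (lower row), coloured by type. Peaks of both lists lie on both sides of the gene, 7 WT peaks and 1 KO peak touch its body, and the widest stretch without a WT peak is 61050 bp.

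In WT, the 35 peaks ran from chr13:66284651 to chr13:66667365, a stretch of 383 kb. The 15 KO peaks ran from chr13:66298728 to chr13:66653676, a stretch of 355 kb inside that of WT. The map of peaks around the gene shows that few touched it. In WT 7 peaks (20.0%, interval 10.0 to 35.9) and in KO 1 peak (6.67%, 1.19 to 29.8) overlapped the gene body. Upstream of the TSS lay 19 WT peaks (54.3%, 38.2 to 69.5) and 9 KO peaks (60.0%, 35.7 to 80.2), so the peaks were spread over both sides in each list. The median distance from the TSS, without sign, was 131418 bp in WT and 76270 bp in KO. More than 100 kb away were 20 WT peaks (57.1%, 40.9 to 72.0) and 7 KO peaks (46.7%, 24.8 to 69.9).

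The lists assign each peak to the gene with the nearest TSS, and the TSSs that they use around *2410141K09Rik* are far apart. That of *Gm10324* lies 327665 bp to the left and that of *Uqcrb*, which encodes a subunit of mitochondrial complex III, 464232 bp to the right. The midpoints leave a span of 396 kb whose peaks take the name *2410141K09Rik*. Over this span WT had 8.84 peaks and KO 3.79 peaks per 100 kb, against 0.893 and 0.666 in the rest of the 62 to 69 Mb window. The peaks just outside on the left were chr13:66264789-66265183 in WT and chr13:66270090-66270695 in KO, both named for *Gm10324*. On the right they were chr13:66676436-66676625 in WT and chr13:66673597-66674292 in KO, both named for *Uqcrb*. Peaks went on past the right border. Between the first and the last *Uqcrb* peak of each list, they numbered 11.9 per 100 kb in WT and 10.5 per 100 kb in KO. This stretch leaves out peak-free edges, so these values cannot be set directly against the 8.84 and 3.79 of the midpoint span. Between their own first and last peaks, the 35 WT peaks of *2410141K09Rik* spread over 383 kb and its 15 KO peaks over 355 kb. The names *2410141K09Rik* and *Uqcrb* thus covered neighbouring parts of 1 dense stretch, in which KO peaks were sparser over the *2410141K09Rik* part.

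Nearest genes depend on which transcripts are counted. Among all RefSeq transcripts, models included, *2410141K09Rik* had the nearest TSS for only 15 of the 50 peaks, 10 in WT and 5 in KO. The lncRNA *Gm46429* took 12 peaks (8 WT and 4 KO), and the model gene *LOC115488129* took 7 (5 WT and 2 KO). The lncRNAs *Gm33043* and *Gm46428* took 4 each, and *Zfp640*, a zinc-finger gene at the right border, took 2 WT peaks. With curated transcripts alone, all 35 WT and all 15 KO peaks kept *2410141K09Rik*. The closest RefSeq gene on the left, the lncRNA *Gm26715*, ends 6054 bp from the gene, and 2 KO peaks and 0 WT peaks lay in between. On the right, 71902 bp without an annotated gene separate the TSS from the pseudogene *Vmn2r-ps105*, and this stretch held 3 WT and 4 KO peaks.

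By the categories of the lists, 28 WT peaks (80%, 64.1 to 90) and 14 KO peaks (93.3%, 70.2 to 98.8) were intergenic. Introns held 5 WT peaks, from 1932 to 19303 bp downstream of the TSS, and 1 KO peak at 16700 bp. The list calls 1 WT peak exonic and places 1 WT peak at the transcription termination site, and no peak of either list was in a promoter. Of the other peaks in the window, 54 of 59 in WT (91.5%, 81.6 to 96.3) and 42 of 44 in KO (95.5%, 84.9 to 98.7) were intergenic. Counting any RefSeq gene body at the peak centre, 21 WT peaks (60.0%) and 11 KO peaks (73.3%) lay outside every gene. Besides *2410141K09Rik* itself, *Gm26715* held 3 WT peaks and 1 KO peak, and *Gm46428* and *Gm45966*, both lncRNAs, held 2 peaks each.

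The exonic WT peak, chr13:66433165-66433788, was 624 bp wide and covered exon 3 (61 bp) in full and 110 of the 127 bp of exon 2 in both curated transcripts. Exon 3 stands at chr13:66433418-66433478 and is shown in capitals below with 40 intronic bases on each side, 5′ to 3′ on the gene's minus strand, because it is the only exon of the gene that any of the 50 peaks covered whole.
Exon 3 of *2410141K09Rik*: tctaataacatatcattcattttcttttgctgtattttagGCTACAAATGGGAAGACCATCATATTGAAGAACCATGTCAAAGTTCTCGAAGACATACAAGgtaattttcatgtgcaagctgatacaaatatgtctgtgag
The peak at the termination site, chr13:66430300-66430607, lay within the last exon of the model transcript only, over its whole width. Closest to the TSS were a WT peak in the first intron (chr13:66439092-66439280, 1932 bp downstream) and the KO peak printed above (1734 bp upstream). The farthest peaks were WT peaks, chr13:66284651-66285085 at 156250 bp downstream and chr13:66667189-66667365 at 226159 bp upstream. In KO the farthest were chr13:66298728-66299130 at 142189 bp downstream and chr13:66653401-66653676 at 212420 bp upstream.

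Widths were alike in both lists. The WT peaks were from 159 to 783 bp wide with a median of 262 bp (95% interval of the median 213 to 293), and the KO peaks from 177 to 733 bp with a median of 253 bp (184 to 403). The widest WT peak, chr13:66647697-66648479, lay in L1_Mus3, an older LINE-1 family, and the narrowest, chr13:66541055-66541213, in ORR1A3-int, the inner part of an LTR element. The widest KO peak, chr13:66415608-66416340, and the narrowest, chr13:66497141-66497317, had no named repeat. The other peaks of the window had medians of 227 bp in WT (202 to 266) and 296 bp in KO (225 to 337). Together the WT peaks covered 2.71% of the 396 kb span and the KO peaks 1.20%.

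The median gap between neighbouring peaks was 4869 bp in WT (34 gaps, interval 2743 to 11327) and 17002 bp in KO (14 gaps, 1937 to 50633), and the intervals overlap. KO had fewer peaks over a stretch of similar length, so its longer gaps cannot be read apart from the peak counts. Gaps ranged from 205 to 61050 bp in WT and from 598 to 97231 bp in KO. In WT 5 gaps were at most 1 kb, and the shortest separated chr13:66438643-66438886 from chr13:66439092-66439280 in the first intron. The next shortest, of 249 bp, lay between the last 2 WT peaks on the right, both in ORR1B1-int. A gap of 435 bp separated both L1Md_T peaks, and gaps of 478 and 667 bp separated chr13:66520470-66520646 from chr13:66521125-66521317 and chr13:66294993-66295271 from chr13:66295939-66296415. In KO 1 gap was at most 1 kb, between chr13:66415608-66416340 and chr13:66416939-66417136, just past the 3′ end of the gene. The longest gap in WT lay downstream of the gene and the longest in KO, from chr13:66497317 to chr13:66594549, upstream of it. Long gaps of both lists overlapped in position, however. The longest WT gap overlapped KO gaps of 55744 and 50633 bp, and the longest KO gap overlapped WT gaps of 46856 and 43564 bp. Over 50 kb were 1 WT gap and 3 KO gaps.

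No WT peak overlapped a KO peak, in the window or anywhere else (0 of 1209). The methods sort peaks into WT-specific, KO-specific and shared ones, and the paper reports peaks common to both genotypes. The deposited lists held no such overlapping peaks, and their totals differ from the peak counts of the paper. Whether the shared class was left out of the deposited lists is not stated in the sources used here. If it was, the lack of overlap follows from how the lists were made, and the distances between the lists below are bounded by it. The closest pair of *2410141K09Rik* peaks was KO chr13:66308597-66308977 and WT chr13:66309570-66309831, 592 bp apart. Next came KO chr13:66653401-66653676 and WT chr13:66654460-66654637, 783 bp apart. These were the only *2410141K09Rik* peaks within 1 kb of the other list, 2 of 35 in WT (5.71%, 1.58 to 18.6) and 2 of 15 in KO (13.3%, 3.74 to 37.9). Among the other peaks of the window, 8 of 59 in WT (13.6%, 7.03 to 24.5) and 6 of 44 in KO (13.6%, 6.40 to 26.7) were that close to the other list. The median distance to the nearest peak of the other list was 6231 bp from a WT peak (3847 to 9865) and 4010 bp from a KO peak (2312 to 6133). These distances depend on how many peaks the other list holds there. In order along the chromosome, the 50 peaks formed 23 runs of one list or the other. This number depends on the peak counts of both lists and was not compared with that of a random order.

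**Figure D2:**
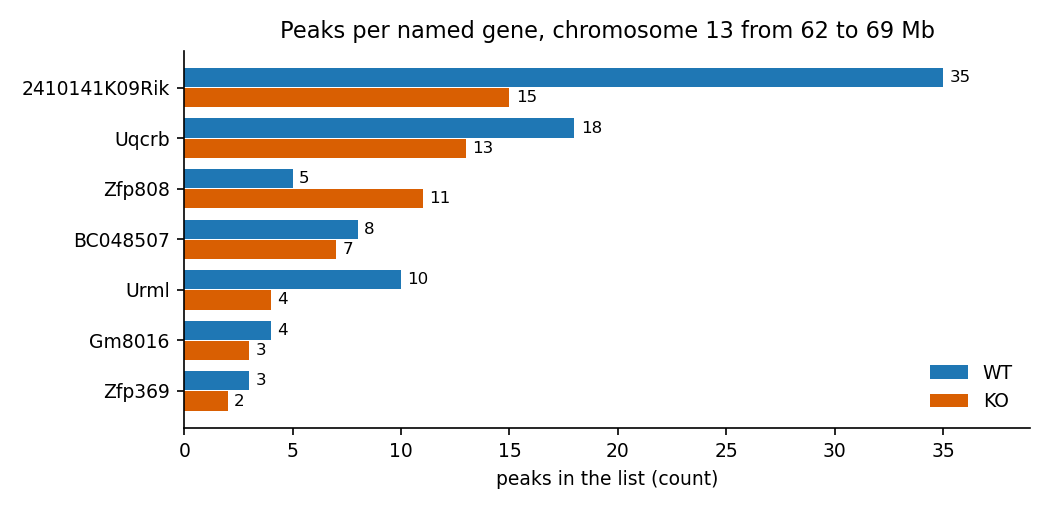
Number of WT and KO peaks for each gene named by at least 3 peaks of either list on chromosome 13 from 62 to 69 Mb (bars from 0, counts printed). 2410141K09Rik had the most peaks in both lists, and Zfp808 had more KO than WT peaks (11 against 5).

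The window held 94 WT and 59 KO peaks, of which 37.2% in WT and 25.4% in KO named *2410141K09Rik*. The plot of peaks per gene places *Uqcrb* next, with 18 WT and 13 KO peaks, the gene most like *2410141K09Rik* by its number of peaks over both lists. *Urml* had 10 and 4, *BC048507* had 8 and 7, *Gm8016* had 4 and 3 and *Zfp369*, a zinc-finger gene, had 3 and 2. *Zfp808*, another zinc-finger gene, had 5 WT and 11 KO peaks, the opposite order. In the whole WT list, *2410141K09Rik* was followed by *Uqcrb* with 18 peaks. In the KO list, *Mir6388* came first with 17 peaks, before *2410141K09Rik* with 15. Because each genotype has a single pooled list and the KO list is the longer of both, the WT and KO counts stand side by side without a test.

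**Figure D3:**
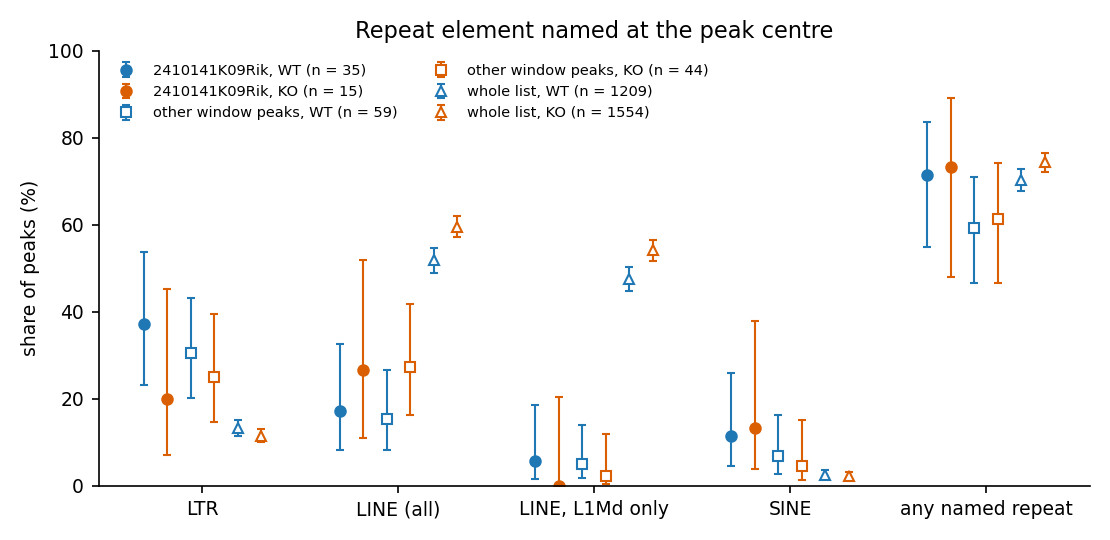
Share of peaks (%) for which the lists name a repeat of each class, for 2410141K09Rik peaks (filled circles), other window peaks (squares) and whole lists (triangles), with Wilson 95% intervals. L1Md elements made up 47.5% of the WT list and 54.1% of the KO list but 5.71% and 0% of the 2410141K09Rik peaks.

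A repeat was named for 25 of the 35 WT peaks (71.4%, 54.9 to 83.7) and 11 of the 15 KO peaks (73.3%, 48.0 to 89.1), shares near those of the whole lists, 70.4% and 74.4%. The kind of repeat differed from the rest of the lists, as the plot of repeat classes shows. LTR elements, remnants of endogenous retroviruses, were named for 13 WT peaks (37.1%, 23.2 to 53.7) and 3 KO peaks (20.0%, 7.05 to 45.2). In the whole lists LTR elements made up 13.2% of WT peaks (11.4 to 15.2) and 11.5% of KO peaks (9.97 to 13.1). LINE elements were named for 6 WT peaks (17.1%, 8.10 to 32.7) and 4 KO peaks (26.7%, 10.9 to 52.0), against 51.8% and 59.6% of the whole lists. Most of those LINE peaks in the whole lists lay in the young L1Md families, which were named for only 2 of the 35 WT peaks and 0 of the 15 KO peaks of *2410141K09Rik*. Among the other window peaks, LTR elements were named for 18 of 59 in WT (30.5%) and 11 of 44 in KO (25%) and L1Md for 3 and 1, so few L1Md peaks were found there either. SINE elements were named for 4 WT and 2 KO members (11.4% and 13.3%) and for 4 WT and 2 KO other peaks (6.78% and 4.55%). Any repeat was named for 59.3% and 61.4% of the other window peaks, with intervals that overlap those of the members.

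Single families recurred among the members. ORR1B1-int, the inner part of a MaLR-type LTR element, was named for 3 WT peaks, and ORR1A3-int, RLTR48A and L1Md_T for 2 WT peaks each. L1_Mur3 was named for 1 WT and 3 KO peaks, MurSatRep1 for 2 WT peaks and 1 KO peak, and the short SINE B1_Mus1 for 2 WT peaks and 1 KO peak. The satellite MMSAT4 was named for the KO peak at chr13:66308597-66308977, which lay in the pseudogene *Gm18260*. No repeat was named for 10 WT and 4 KO peaks, among them the exonic peak and the one at the termination site, since peaks in these categories get no repeat name.

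**Figure D4:**
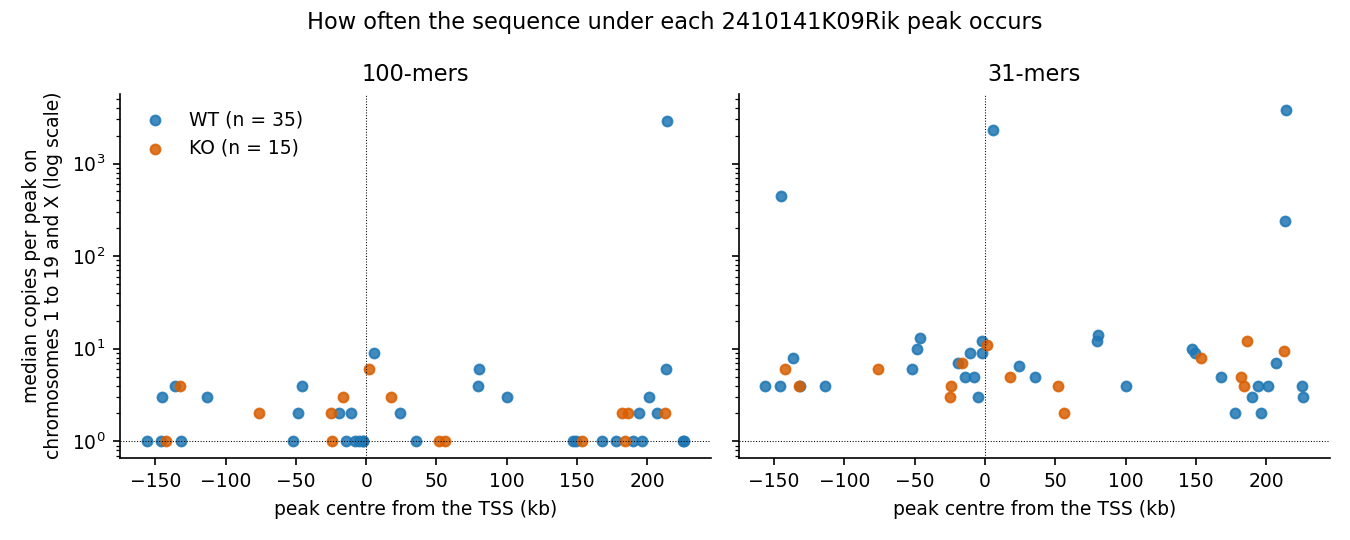
Median number of times that the 100-mers (left) and 31-mers (right) of each 2410141K09Rik peak occur in chromosomes 1 to 19 and X, either strand (log scale), against the position of the peak centre from the TSS in kb. The KO peaks reach 6 copies at 100 bases and 12 at 31 bases, while a WT peak in L1Md_T reaches 2911 and 3787 copies.

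How often the bases under a peak occur was counted in stretches of 100 and of 31 bases (100-mers and 31-mers). The median 100-mer occurred more than once for 17 WT peaks (48.6%, 33.0 to 64.4) and 9 KO peaks (60.0%, 35.7 to 80.2). Among the other window peaks this held for 26 of 59 in WT (44.1%, 32.2 to 56.7) and 9 of 44 in KO (20.5%, 11.2 to 34.5). *Uqcrb* peaks stood with the members, at 11 of 18 in WT (61.1%, 38.6 to 79.7) and 6 of 13 in KO (46.2%, 23.2 to 70.9). Without *Uqcrb* the other peaks were at 15 of 41 in WT (36.6%) and 3 of 31 in KO (9.68%), so a repeated median was not particular to *2410141K09Rik*. At 31 bases, every member had a repeated median, 35 of 35 in WT and 15 of 15 in KO, as had all 31 *Uqcrb* peaks and 51 of 59 WT (86.4%) and 38 of 44 KO (86.4%) other window peaks. The members had medians over the peaks of 6 copies in WT (4 to 9) and 5 copies in KO (4 to 8).

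The copies were mostly local. For 41 of the 50 peaks (82%, 69.2 to 90.2) the median 31-mer was repeated and had 0 copies outside the 62 to 69 Mb window, against 56 of the 103 other window peaks (54.4%, 44.8 to 63.7). This too was shared with the neighbouring *Uqcrb* stretch, where it held for 29 of 31 peaks (93.5%, 79.3 to 98.2), while it held for 27 of the 72 peaks of the window that named neither gene (37.5%, 27.2 to 49.0). Only 4 peaks, all WT, had a median of more than 100 copies of their 31-mers. They were chr13:66295939-66296415 in MTA_Mm-int, chr13:66446616-66446832 in MTA_Mm, and chr13:66654460-66654637 and chr13:66655073-66655285 in L1Md_T. The last of these, whose sequence is printed above, had the highest median 100-mer count, 2911 copies, of which 10 were in the window. The highest in KO was that of the KO peak nearest the TSS, with 6 copies, all of them in the window. At the other end, all 100-mers occurred once under 5 WT peaks and 1 KO peak, among them the 2 WT peaks closest to the TSS.

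**Figure D5:**
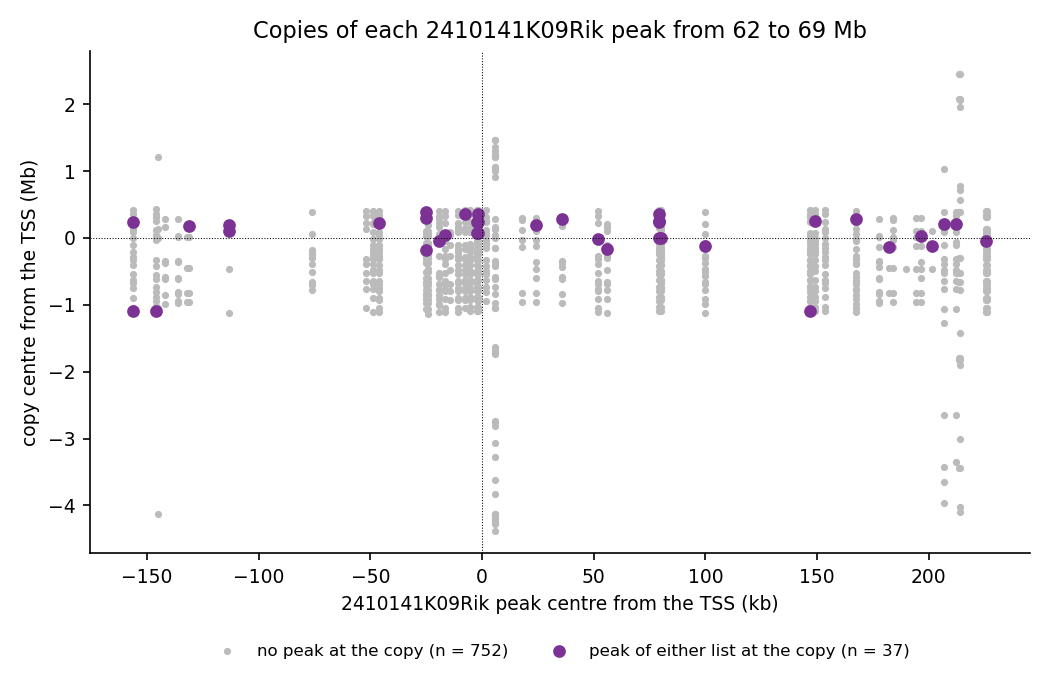
Copies of each 2410141K09Rik peak on chromosome 13 from 62 to 69 Mb, by the centre of the peak (horizontal, kb from the TSS) and of the copy (vertical, Mb from the TSS), each copy aligned over at least 80% of the peak at 90% identity or more. Of 789 copies, 37 overlap a peak of either list (large points), and the median distance of a copy from its peak is 471801 bp.

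Copies of whole peaks were searched for in the 62 to 69 Mb window alone, so they say nothing of copies elsewhere. Aligned over at least 80% of the peak at 90% identity or more, 35 of 35 WT peaks and 14 of 15 KO peaks had at least 1 other copy in the window, with a median of 19 copies per WT peak and 13 per KO peak. The most copies, 49, were those of WT chr13:66446616-66446832 in MTA_Mm, an LTR of the MaLR type, and in KO the most were 27, for chr13:66416939-66417136. The single peak without a copy was KO chr13:66627162-66627646 in RLTR45-int. The same held for the locus as a whole, where 97.4% of all 262-bp tiles of the 396 kb span had such a copy, with a median of 12. The copies lay at a median distance of 471801 bp, and 23.3% of the 789 copies were inside the span.

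Most copies carried no peak. A peak of either list overlapped 29 of 596 copies of WT peaks (4.87%) and 8 of 193 copies of KO peaks (4.15%), and for 18 of these 37 copies the overlap was at least 50% of the copy. A peak overlapped 7.21% of the 262-bp tiles of the span and 1.20% of the tiles of the whole window. Only 23.3% of the copies lay in the span, and copies vary in width. These tile shares therefore do not place the shares of copies as high or low. The copies with a peak belonged to 21 WT and 6 KO members. At 19 of these copies the peak was another *2410141K09Rik* peak, at 13 a *Uqcrb* peak, at 3 a *Zfp369* peak and at 2 a *Gm10324* peak. Copies were counted from each member, so a pair of members that are copies of each other counts from both sides. The 37 and the 19 therefore hold fewer distinct pairs of sites.

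Some copies with peaks fell into sets. The WT peak in the first intron, chr13:66439092-66439280, had copies of 97.1 to 98.4% identity at 3 other peaks. These were the WT peak at chr13:66520470-66520646 printed with it above, a KO *Uqcrb* peak over the copy at chr13:66678590-66678761, and a WT *Uqcrb* peak over the copy at chr13:66800531-66800719. The neighbouring WT peak, chr13:66438643-66438886, had a copy at chr13:66677912-66678154, which a KO *Uqcrb* peak overlapped by 99 bp. That neighbouring WT peak was itself overlapped by 14 bp by a copy, on the opposite strand, of WT chr13:66521125-66521317. A copy of the exonic WT peak, 96.0% identical over 99.8% of the peak at chr13:66794386-66795007, was overlapped by a KO *Uqcrb* peak, but over only 78 bp. The WT peak with the identical copy printed above had another copy, 99.3% identical, at chr13:66642597-66642889, which another WT peak of the gene overlapped by 92 bp. At several pairs of near-identical sites, then, both carried a WT peak, or a WT peak stood at one and a KO peak at the other. In some of these pairs the peaks shared only a small part of the copied sequence.

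Compared directly, 8 of the 50 peaks were alike to another of them over at least 80% of the shorter peak at 80% identity or more, in 4 pairs. Besides the 2 pairs printed above, KO chr13:66622957-66623465 matched WT chr13:66309570-66309831 over 236 bp at 93.6% identity, 313125 bp apart. KO chr13:66653401-66653676 matched WT chr13:66647697-66648479 over 264 bp at 92.8% identity, 4921 bp apart, both in L1_Mus3.

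The longest exact match of any *Meg3* probe to a member, on either strand, was 13 bases in WT and 10 bases in KO, with a median of 8 bases in each list. The other window peaks reached 13 bases in WT and 10 in KO, also with medians of 8, so matches to the 20-base probes were no longer under *2410141K09Rik* peaks. The median GC content was 41.8% in WT (37.4 to 47.1) and 34.8% in KO (31.1 to 39.5), against 44.3% and 43.6% for the other window peaks. The letters GAGAGA, a GA-rich run searched on both strands, were found in 7 of 35 WT peaks (20.0%, 10.0 to 35.9) and 3 of 15 KO peaks (20.0%, 7.05 to 45.2). Tiles of the window cut to the same widths held them in 26.3% and 26.8% of cases.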

How the data were processed

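The data were the annotated lists of *Meg3* ChIRP-seq peaks that the authors deposited, 1 for WT and 1 for β-actin KO MEFs. Per the paper's methods, Trimmomatic trimmed the reads, BWA-MEM placed them on GRCm38 and Picard removed duplicates. The 4 libraries of a genotype were merged, peaks were called with MACS2 against input (q of 0.05), blacklisted peaks were removed, and HOMER sorted the rest into peaks of WT, of KO and of both and annotated them on mm10. Which of these classes the deposited lists hold is not given in the sources used here. Tool versions are not given in the sources used here. The peak score that the authors deposited is 1 throughout. The start, end and distance to the TSS in the deposited lists are positions in bp (unit other) and were not normalized. Depth is unknown. Merging hides the spread between libraries and probe pools, and reads of repeated sequence can be placed at any of several copies.

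Members were the rows of both lists with the gene name *2410141K09Rik*. The gene, the window and the measures were chosen with earlier results of these data known. Genes were named if nearest to at least 3 peaks of either list in the window, next to the gene in RefSeq, or second by WT peaks in the whole list. *Gm10324* and others that a count turned on were named after their values were seen. Single peaks were given by position, width, category, copy number and closeness to the other list. Gaps are the bases between 2 peaks.

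Sequence and genes came from RefSeq GRCm38. Occurrences of every 31-mer and 100-mer were summed over chromosomes 1 to 19 and X, either strand. BLAST+ 2.17.0 (blastn task, e-value 1e-05, no masking) found copies from 62 to 69 Mb (80% of the peak aligned, 90% identity) and alike members. Tiles were all non-overlapping windows of the median WT width. On simulated data, planted copies were recovered in 100 of 100 cases by k-mers and in 99 of 100 by BLAST+. No test was made, since each genotype has 1 list and peaks of 1 locus are not independent. Shares have Wilson 95% intervals. Alternatives changed the gene assignment, merging, distance, window, k-mer length and likeness rule. Scripts ran on Python 3.11.15 (numba 0.67.0, numpy 2.4.6, scipy 1.17.1, pandas 2.3.3, matplotlib 3.10.9).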

Additional observations from a re-analysis of the deposited data

How the results depend on the processing

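No paired analysis was possible because each genotype has 1 list called on merged libraries. With the gene of the nearest TSS among all RefSeq transcripts, 10 WT and 5 KO peaks kept *2410141K09Rik*. With curated transcripts, an alternative added after the data were seen, the counts stayed at 35 and 15. Without peaks over 100 kb from the TSS, 15 WT and 8 KO peaks were left, and 18 and 6 had a median 100-mer that occurs once. The intergenic share in WT fell from 80% to 53.3% without peaks over 100 kb from the TSS and was 60.0% when any RefSeq gene body at the centre was counted. With 31-mers in place of 100-mers, the share of peaks with a repeated median was 100% in both lists. The share of peaks naming the gene was 25.2% in WT and 15.5% in KO over all of chromosome 13, and 54.7% and 46.9% from 65 to 68 Mb. With gaps of up to 5 kb, 15 WT and 9 KO peaks were near a peak of the other list. With peaks within 1 kb merged, the median gap between neighbouring WT peaks was 7335 bp in place of 4869 bp, within the interval of that median. In all, 16 of 32 alternatives stayed within 1.5 times a count or within the interval of a share or median. Without depths or scores, a site missing from a list cannot be told apart from a site below the caller's threshold or, if the shared class was left out, from a site called in both genotypes.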
